A study of Mus musculus with 6 samples.

Results

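A set of 10 genes of fatty acid activation, desaturation and related lipid chemistry was followed in mouse long-term haematopoietic stem cells (HSCs), which renew the blood from the bone marrow, sorted for high or low content of Asrij, the endosomal and mitochondrial protein encoded by Ociad1. The genes are the 5 long-chain acyl-CoA synthetases (Acsl1, Acsl3, Acsl4, Acsl5 and Acsl6), the 3 stearoyl-CoA desaturases Scd1, Scd2 and Scd3, the epoxide hydrolase gene Ephx2 and the TLC domain gene Tlcd4, 10 of the 49997 gene symbols in the count table. The synthetases and desaturases stand for their families, whereas Ephx2, Tlcd4, Acsl6 and Scd3 were chosen by their log2 fold change in this same comparison, where they were far higher in Asrij high. The difference between the populations is therefore given for the 10 genes as a description without a test.

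The Asrij high group held 3 libraries and the Asrij low group 3 libraries, all from bone marrow of C57BL/6J mice aged 4 months, with no treatment or allele named in the labels. The count table that holds all 6 libraries carries the tag ArjKI in its own name, which the labels do not explain. How Asrij was read in the sort is not given, nor is the number of mice behind the libraries. Any p-value below is thus about the spread among these 6 samples, part or all of which may be technical. Library totals lay between 62732782 and 72855125 counts in Asrij high and between 24707012 and 46240743 counts in Asrij low. Ociad1 itself averaged 80.3 ± 5.76 CPM in Asrij high, against 51.6 ± 5.72 CPM in Asrij low (SD, n = 3 each), where CPM is the usual depth-scaled count, here with TMM factors for the library sizes. Its log2 fold change of 0.64 had an adjusted p = 0.0115 in edgeR's quasi-likelihood test, and the call was lost with library totals (adjusted p = 0.133), with upper quartile factors (adjusted p = 0.0834) and without Asrij high replicate 1 (adjusted p = 0.0831). Of 10 stem cell marker genes, all 10 were detected and all 10 were lower in Asrij high, with summed levels of 423 to 691 CPM in Asrij high, against 1283 to 1488 CPM in Asrij low. A library in each group stood apart in its marker sums. Asrij high replicate 2 had the 691 CPM of stem cell markers and 1042 CPM of megakaryocyte markers, where the other Asrij high libraries had at most 426 and 365. Asrij low replicate 3 had 779 CPM of mesenchymal markers, where the other Asrij low libraries had 242 and 327. It was also the highest of its group for erythroid markers, at 81133 CPM, against 27608 and 11255 CPM in replicates 1 and 2. The same held for macrophage markers (236, against 74.8 and 74.2 CPM) and B and plasma cell markers (152, against 73.6 and 97.3 CPM). Neutrophil markers were highest there as well (3674, against 2512 and 856 CPM). Without both libraries, 7 of the 10 genes described were past the threshold as higher in Asrij high and 0 as lower, the same counts as with them. Among all 22007 genes then tested, 4442 were past it as higher and 3925 as lower. This comparison picked several of the 10 genes, so their unchanged counts are no test of what these libraries contribute.

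Free fatty acids enter metabolism only after a synthetase joins them to coenzyme A. The ACSL enzymes do this for long chains and differ in the membranes they sit on and the chains they prefer, ACSL4 being known for arachidonic acid and ACSL6 for red cell precursors and brain. Stearoyl-CoA desaturases then place a double bond in saturated acyl-CoA and so supply the monounsaturated chains of membranes and stored fat. Soluble epoxide hydrolase, the product of Ephx2, opens the epoxides made from polyunsaturated fatty acids, and TLC domain proteins are membrane proteins related to those that make or sense lipids.

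The region upstream of a transcription start was given for 7 of the 10 genes in RefSeq (GRCm38.p6, the assembly behind mm10), the others being Scd1, Scd2 and Ephx2. The 250 bases before a start are printed for Acsl6, Tlcd4 and Scd3, the genes with an entry that differed most between the populations, each at the start lying farthest upstream among those given. A window of Acsl1 is printed too, picked because it held a match to the motif of the sterol response element. Whether any match is a working site was not tested. The Tlcd4 and Acsl1 windows printed lie inside the annotated genes (chromosome 3, 121202008 to 121283108, and chromosome 8, 46471037 to 46536051). Both therefore belong to internal starts. Capitals mark matches to 6 motifs searched on both strands, namely AGATAA for binding sites of erythroid zinc finger factors, CCAAT for the box bound by nuclear factor Y, CACGTG for the E-box, TCACNCCAC for the sterol response element, GGGCGG for the box bound by Sp factors, and TATAAA for the classical core promoter element. All 4 are written 5′ to 3′ in the direction of the gene.
Acsl6, plus strand, chr11:54303574-54303823: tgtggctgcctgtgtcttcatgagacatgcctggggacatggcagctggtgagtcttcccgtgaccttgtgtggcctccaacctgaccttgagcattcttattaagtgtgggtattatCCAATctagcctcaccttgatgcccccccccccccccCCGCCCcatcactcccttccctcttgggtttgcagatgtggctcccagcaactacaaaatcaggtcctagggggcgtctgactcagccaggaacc
Tlcd4, minus strand, chr3:121263341-121263590: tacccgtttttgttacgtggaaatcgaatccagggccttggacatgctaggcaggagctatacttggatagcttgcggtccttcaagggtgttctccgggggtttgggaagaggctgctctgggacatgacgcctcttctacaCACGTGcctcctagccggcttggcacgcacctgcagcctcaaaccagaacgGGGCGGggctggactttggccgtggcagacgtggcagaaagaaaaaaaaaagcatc
Scd3, plus strand, chr19:44203038-44203287: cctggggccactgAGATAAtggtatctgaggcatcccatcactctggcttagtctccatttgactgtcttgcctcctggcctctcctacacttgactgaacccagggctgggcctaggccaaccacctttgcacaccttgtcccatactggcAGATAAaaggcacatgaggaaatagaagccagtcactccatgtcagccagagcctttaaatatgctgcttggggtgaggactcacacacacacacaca
Acsl1, plus strand, chr8:46490716-46490965: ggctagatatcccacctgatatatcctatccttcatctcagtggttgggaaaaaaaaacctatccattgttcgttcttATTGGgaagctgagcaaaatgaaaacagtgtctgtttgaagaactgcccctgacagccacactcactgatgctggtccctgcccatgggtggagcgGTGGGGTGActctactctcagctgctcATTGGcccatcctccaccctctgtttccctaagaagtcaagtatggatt

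The Scd3 window held AGATAA in 2 places, a motif found in 9.99% of 32851 RefSeq windows of this length. The window of Scd4, a desaturase gene outside the 10, held it too, as TTATCT on the other strand. The Acsl6 window held CCAAT, found in 33.8% of windows, and GGGCGG, found in 32.7%. The other 2 Acsl6 starts held GGGCGG as well, and none of its 3 windows held AGATAA. The Tlcd4 window held CACGTG, found in 6.02% of windows, with GGGCGG. The other Tlcd4 start held GGGCGG in 2 places and no CACGTG. The Acsl1 window was the only one among those of the 7 genes with TCACNCCAC, found in 1.05% of windows, and the other Acsl1 start held GGGCGG in 4 places. The core promoter element TATAAA, found in 12.4% of windows, was in none of those of the 7 genes.

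Acsl6, whose exons lie on chromosome 11 (54303805 to 54364756), was clearly expressed in Asrij high and at trace level in Asrij low. It had 45.8, 20.8 and 41.7 CPM in Asrij high replicates 1 to 3 and 0.555, 1.04 and 0.772 CPM in Asrij low replicates 1 to 3. Even the lowest Asrij high library was far above every Asrij low library, where the gene had 30, 30 and 20 counts. The log2 fold change, Asrij high over Asrij low, was 5.54 ± 0.42 (SE), a ratio of means of 45.8. An antisense gene model at this locus, Gm12224, had 420, 269 and 429 counts in Asrij high and no count in Asrij low, and with the counting options not given in the sources used here, reads of the pair cannot be separated.

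**Figure D1:**
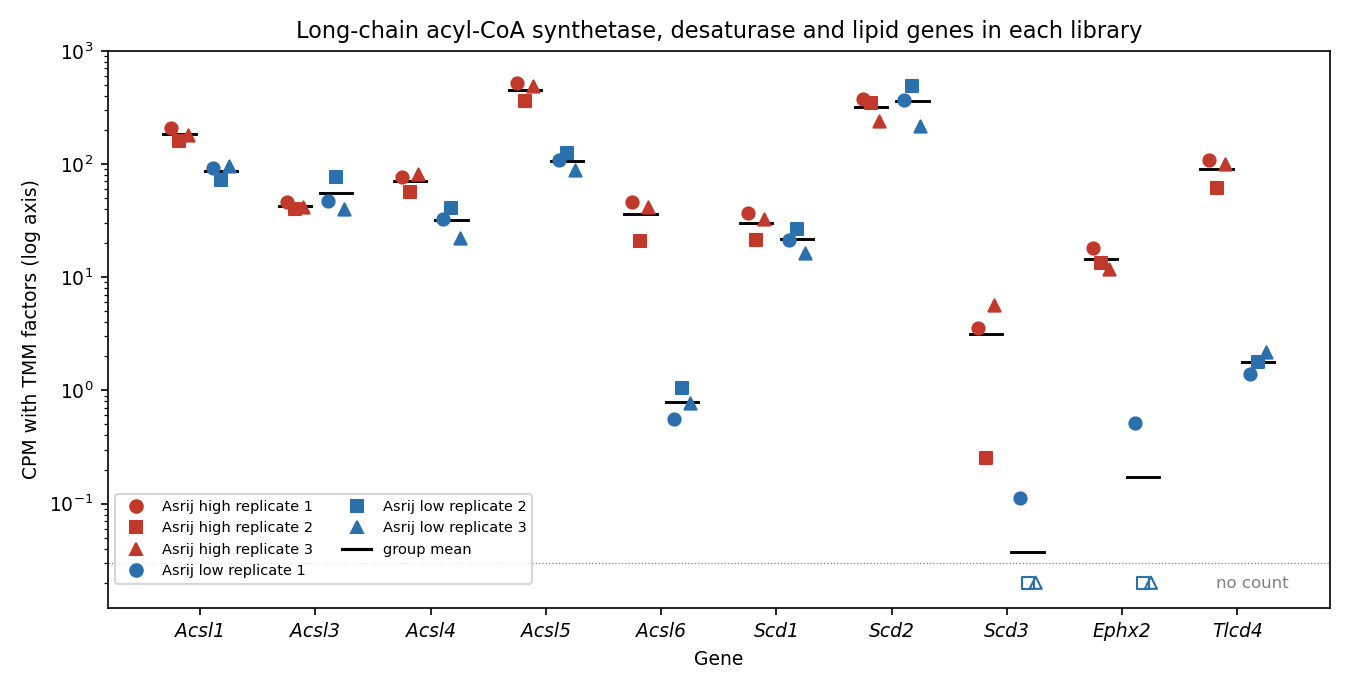
CPM with TMM factors (log axis) of the 10 genes in each library, with Asrij high in red, Asrij low in blue, marker shapes for replicates 1 to 3 and black lines for group means. Open markers on the bottom strip are libraries with no count. Acsl6, Scd3, Ephx2 and Tlcd4 show the wide gaps, whereas Acsl3, Scd1 and Scd2 overlap between the groups.

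Acsl5, a synthetase of mitochondria and endoplasmic reticulum, had the highest mean level of the family in both populations, and the highest level per kilobase of exon in every library. In CPM not divided by length, Acsl1 was above it in Asrij low replicate 3. It had 522, 356 and 484 CPM in Asrij high, against 108, 125 and 87.8 CPM in Asrij low, with no overlap. The log2 fold change was 2.09 ± 0.21. Acsl5 is partly overlapped on the other strand by Zdhhc6, a palmitoyltransferase gene with 3225 to 4071 counts in Asrij high and 592 to 1149 counts in Asrij low, against 22693 to 31941 counts of Acsl5 in Asrij high and 2274 to 5837 in Asrij low.

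Acsl1, the main synthetase of fat, heart and liver, had 207, 160 and 181 CPM in Asrij high, against 92.2, 72.5 and 95.5 CPM in Asrij low. The groups did not overlap, and each was narrow, with a coefficient of variation of 12.9% in Asrij high and 14.4% in Asrij low. The log2 fold change was 1.07 ± 0.18. Acsl4, which channels arachidonic acid into phospholipids, had 76.8, 56.4 and 80.9 CPM in Asrij high, against 32.7, 40.7 and 22.2 CPM in Asrij low. Here too every Asrij high library was above every Asrij low library, and the log2 fold change was 1.16 ± 0.25.

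Acsl3, the synthetase found on lipid droplets, was alone in its family in not being higher in Asrij high. It had 45.8, 40.2 and 41.4 CPM in Asrij high, against 47.3, 77.4 and 39.8 CPM in Asrij low. The groups overlapped, and the higher Asrij low mean rested on replicate 2, the only library above 47.3 CPM. The log2 fold change of -0.37 ± 0.25 came to -0.01 without Asrij low replicate 2. Utp14b, a gene annotated on the same strand within the Acsl3 locus, had 1609 to 2125 counts in Asrij high and 738 to 1978 counts in Asrij low, against Acsl3 counts of 2491 to 2729 in Asrij high and 1032 to 2555 in Asrij low.

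Per kilobase of exon (GENCODE M21, the mm10 annotation at hand, which may not be the one used for counting), the ACSL family summed to 156, 110 and 146 CPM per kb in Asrij high and 48.0, 58.0 and 40.5 CPM per kb in Asrij low. In Asrij high the order of mean levels was Acsl5 (93.4 CPM per kb), Acsl1 (17.4), Acsl4 (13.2), Acsl3 (9.74) and Acsl6 (3.64). Of the neighbours in that order, Acsl4 (10.4 to 15.0 CPM per kb over the libraries) and Acsl3 (9.23 to 10.5) overlapped, and Acsl1 (15.2 to 19.7) lay just above Acsl4. In Asrij low the order was Acsl5 (21.98 CPM per kb), Acsl3 (12.6), Acsl1 (8.27), Acsl4 (5.89) and Acsl6 (0.0796), where Acsl1 (6.91 to 9.11) and Acsl4 (4.11 to 7.53) overlapped and the lowest Acsl3 library, at 9.14, lay just above the highest of Acsl1.

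The share of each gene in the family sum differed accordingly. Acsl5 held 67.8 ± 1.20% of it in Asrij high and 45.1 ± 1.10% in Asrij low (SD, n = 3 each). Acsl3 held 7.20 ± 1.01% in Asrij high and 25.3 ± 4.63% in Asrij low. Neither share overlapped between the groups. Acsl1 held 12.8 ± 0.982% in Asrij high and 17.6 ± 5.33% in Asrij low, and Acsl4 held 9.61 ± 0.610% in Asrij high and 11.9 ± 1.53% in Asrij low, and both overlapped between the groups. Acsl6 held 2.58 ± 0.588% in Asrij high and 0.163 ± 0.0407% in Asrij low. Shares do not depend on the scaling of libraries.

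**Figure D2:**
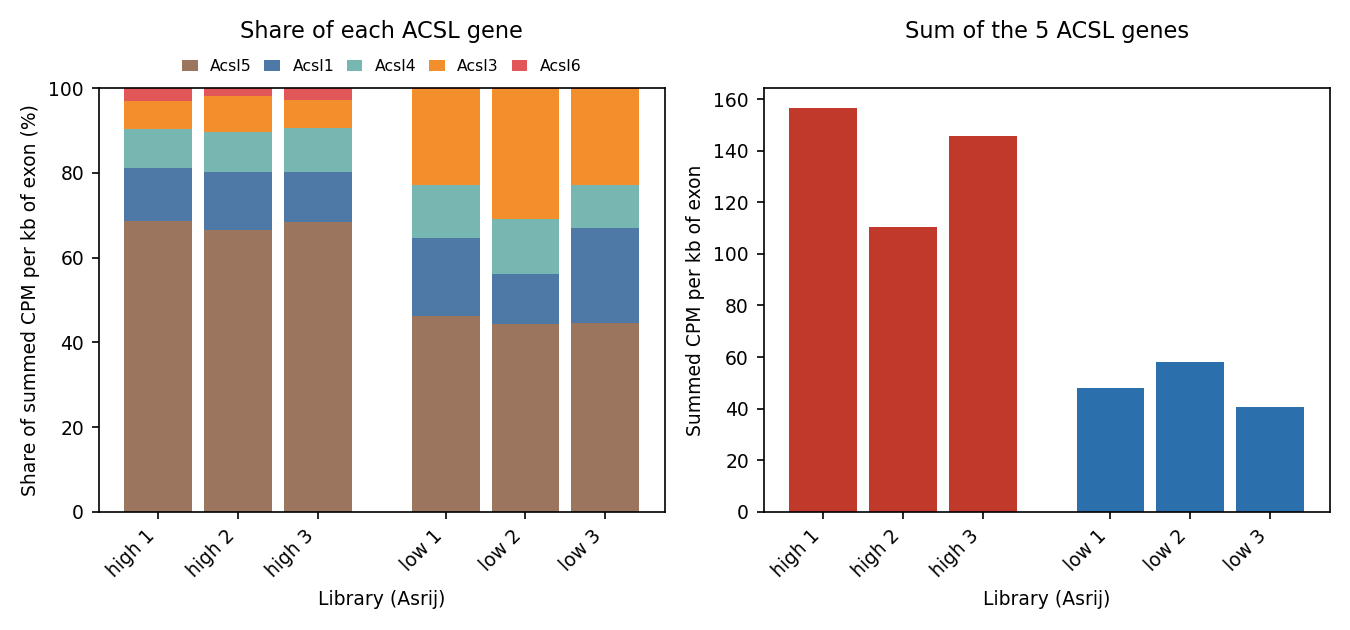
Left, share (%) of each synthetase gene in the summed CPM per kb of exon of the 5 ACSL genes, 1 bar per library, Asrij high to the left of Asrij low. Right, that sum in each library. Acsl5 takes 66.4% to 68.6% of the sum in Asrij high and 44.3% to 46.3% in Asrij low.

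The desaturase genes lie side by side on chromosome 19. Scd2, the form prominent in brain and in developing tissue, was the dominant one, with 378, 345 and 237 CPM in Asrij high, against 367, 492 and 214 CPM in Asrij low. The groups overlapped fully, and the lowest library of each was replicate 3. The log2 fold change was -0.16 ± 0.30, and it took the other sign, at 0.17, without Asrij low replicate 2. Scd1, the major form of liver and fat, had 37.1, 21.3 and 32.7 CPM in Asrij high, against 21.5, 26.8 and 16.5 CPM in Asrij low. Asrij high replicate 2 lay within the Asrij low range, and the log2 fold change was 0.49 ± 0.27, or 0.73 without that library.

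Scd3, first described in mouse skin, was the rare desaturase, and its libraries disagreed within Asrij high. It had 3.53, 0.251 and 5.63 CPM in Asrij high replicates 1 to 3, from 192, 16 and 371 counts. In Asrij low it had 0.111 CPM in replicate 1, from 6 counts, and no count in replicates 2 and 3, which allows up to 0.104 and 0.116 CPM (3 counts, counting error only). The groups did not overlap, but Asrij high replicate 2 was 22.4-fold below replicate 3. The fitted log2 fold change of 5.97 ± 1.38 became 5.29 without Asrij high replicate 3 and 10.24 without Asrij low replicate 1, where no Asrij low count is left and the value is no bound. Scd3 was the one of the 10 genes whose call depended on the tool, being past the threshold with edgeR and not with limma-voom.

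Per kilobase of exon, Scd2 held 88.7 ± 4.65% of the SCD family sum in Asrij high and 93.1 ± 1.22% in Asrij low. Scd1 held 9.70 ± 3.24% in Asrij high and 6.57 ± 1.15% in Asrij low, and Scd3 held 1.48 ± 1.49% in Asrij high and 0.0145 ± 0.0252% in Asrij low. The fourth mouse desaturase gene, Scd4, stayed at 0.379 ± 0.224 CPM in Asrij high, against 0.822 ± 0.279 CPM in Asrij low (log2 -1.11 ± 0.90, adjusted p = 0.356 in edgeR). Of the 50-base words in annotated Scd3 transcripts, 6.26% also occur in another desaturase gene, against 4.56% for Scd1 and 3.75% for Scd2. A small part of the family's reads could thus be placed in more than 1 of them. For Scd3, at a mean of 3.13 CPM in Asrij high beside 320 CPM of Scd2, that part need not be small. In Asrij low these means were 0.0370 and 358 CPM, and misplacement of reads was not tested. For the ACSL genes, Ephx2 and Tlcd4 none of these words was shared with the other genes described.

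Ephx2, on chromosome 14, had 18.2, 13.3 and 11.8 CPM in Asrij high, from 779 to 989 counts. In Asrij low it had 0.518 CPM in replicate 1, from 28 counts, and no count in replicates 2 and 3, with the floors given above. The Asrij high libraries were tight, and the Asrij low libraries were split between 1 with reads and 2 without. The log2 fold change of 6.08 ± 1.01 therefore rests on Asrij low replicate 1; without it the fitted value was 12.44, which is no bound. Tlcd4, on chromosome 3, had 109, 61.9 and 101 CPM in Asrij high, against 1.39, 1.77 and 2.16 CPM in Asrij low. No Asrij low library came near the lowest Asrij high library, and the log2 fold change was 5.69 ± 0.31, a ratio of means of 51.1. A processed pseudogene inside the Tlcd4 locus, Gm9353, had 131, 144 and 222 counts in Asrij high and none in Asrij low, against 3939 to 6635 counts of Tlcd4 in Asrij high.

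Counted over the 10 genes, all tested, 7 were past an adjusted p of 0.05 as higher in Asrij high and 0 as lower (also 0 at an unadjusted p under 0.05, and 0 with DESeq2 and with limma-voom), where 21.7% of the 21445 genes tested were past it as higher and 17.7% as lower, 39.4% in all. The same 7 genes did not overlap between the groups, with every Asrij high library above every Asrij low library, and neither did 55% of all tested genes, namely 30.2% with Asrij high above and 24.8% with it below. Since this comparison picked several of the 10 genes, these counts describe the choice. Their median log2 fold change was 1.62, beside -0.02 for all tested genes. Acsl6, Scd3, Ephx2 and Tlcd4 stood at 5.54 to 6.08, and 104 of all tested genes had a log2 fold change above 5. The remaining 6 genes ran from -0.37 to 2.09.

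**Figure D3:**
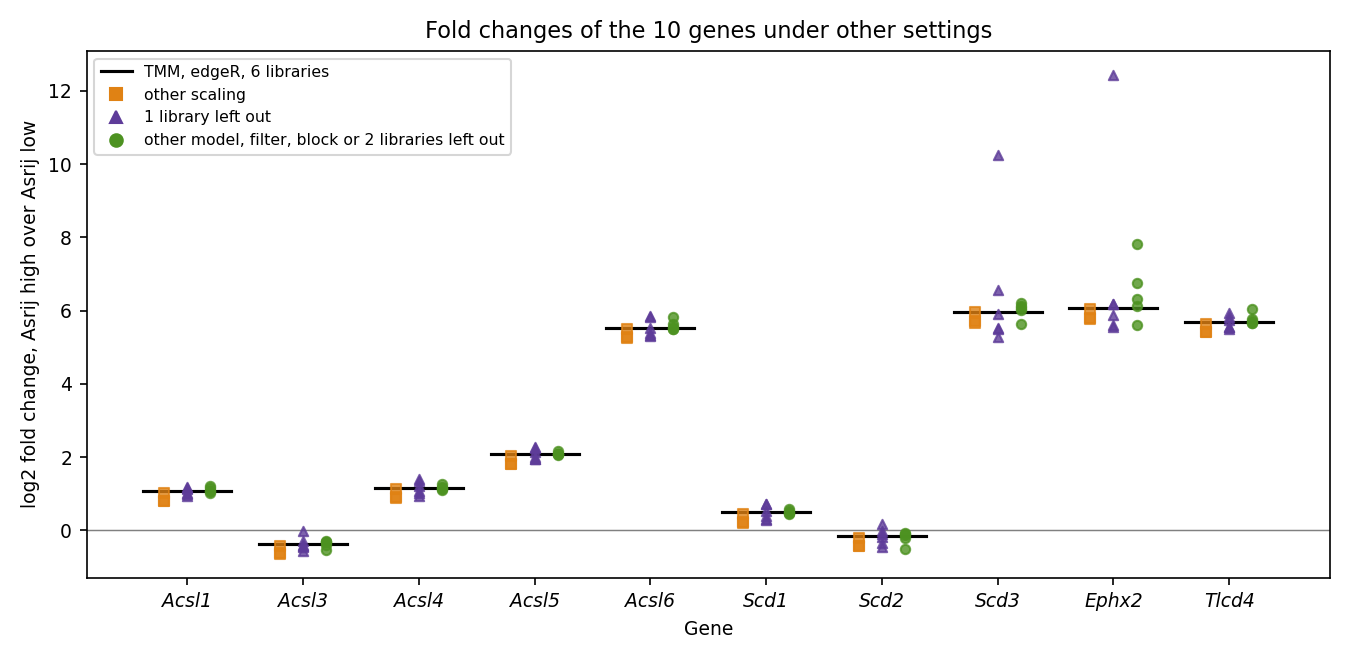
Fitted log2 fold change, Asrij high over Asrij low, of each gene with all 6 libraries (black line), under other scaling (squares), with 1 library left out (triangles) and under other models, filters, the replicate block or with 2 libraries left out (circles). The widest ranges are those of Scd3 (5.29 to 10.24) and Ephx2 (5.56 to 12.44), and Scd2 alone lies on both sides of 0.

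Across the libraries, Asrij high replicate 2 was the lowest of its group for Acsl1, Acsl3, Acsl4, Acsl5, Acsl6, Scd1, Scd3 and Tlcd4. It was not the lowest for Scd2 and Ephx2, where replicate 3 was. Markers of other cells moved with the populations as well, and in bulk RNA fewer cells of a type and less RNA per cell cannot be told apart. Of 12 erythroid markers, 5 were past the threshold as higher in Asrij high (Klf1, Gata1, Epor, Ermap and Rhag) and 5 as lower (Alas2, Hbb-bs, Hbb-bt, Hba-a1 and Hba-a2). Their summed level, mostly globin, was 4324 to 8083 CPM in Asrij high, against 11255 to 81133 CPM in Asrij low, highest in Asrij low replicate 3. Ermap, an erythroblast membrane protein gene, had the largest rise of these markers. It had 1034, 622 and 941 CPM in Asrij high, against 48.3, 14.8 and 99.4 CPM in Asrij low. The globin gene Hbb-bs went the other way, with 1443, 769 and 1516 CPM in Asrij high, against 6658, 2740 and 18499 CPM in Asrij low. Asrij high replicate 2 was the lowest of its group for both, and for each of the other erythroid markers except Klf1. The part of erythroid cells in the levels of Acsl6 and Tlcd4 was not tested. Of 8 adipocyte markers, whose cells are rich in Acsl1 and Scd1, 0 were past the threshold as higher in Asrij high and 3 as lower (4 were tested). Their sums were 20.8 to 27.5 CPM in Asrij high, against 50.9 to 75.5 CPM in Asrij low, and Cidec was at 0 in all 6 libraries. Lipe alone made up 16.8 to 25.9 CPM of these sums in Asrij high and 37.1 to 55.7 CPM in Asrij low. Another of these markers, Adipoq, is counted among the mesenchymal markers too. Of 8 neutrophil markers, 2 were past the threshold as higher and 1 as lower, with sums of 3576 to 6978 CPM in Asrij high, against 856 to 3674 CPM in Asrij low. Their part in the levels of Acsl1 and Acsl5 was not tested.

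Genes were also ranked by how closely their pattern over the 6 libraries followed that of each gene, as the root mean square distance of gene-centred log2 CPM, for the 8 genes with counts in every library. Acsl6 and Tlcd4 were each other's nearest gene, at a distance of 0.26, but both were chosen for a log2 fold change that 94 tested genes reached, and neither was among the other's 3 nearest after scaling to unit SD. The serine protease gene Hpn lay at 0.48 from Acsl6 and 0.30 from Tlcd4. Aknad1 came between or after them by rank (0.35 and 0.32), but it had no count in Asrij low, so its distance depends on the prior count and says nothing of likeness. For Acsl5 the nearest were Sdhd, a subunit of respiratory complex II (0.053), the mitochondrial matrix protein gene C1qbp (0.064) and the nuclear transport GTPase gene Ran (0.067). For Acsl4 they were Sra1 (0.052), the aspartyl-tRNA synthetase gene Dars (0.066) and the ribosome assembly gene Tsr1 (0.066), and for Acsl1 they were the prostaglandin E synthase gene Ptges2 (0.068), Slc35d1 (0.071) and Trappc1 (0.072).

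Acsl3 lay nearest to Gimap9 (0.065), to Fdft1, which encodes squalene synthase of the cholesterol pathway (0.090), and to Lrif1 (0.12). Scd1 lay nearest to Rnf113a2 (0.039), the retromer gene Vps26a (0.078) and Sumf1 (0.098), and Scd2 to Klhdc9 (0.084), Txnrd3 (0.10) and Sinhcaf (0.12). With each gene scaled to unit SD, none of the 3 nearest genes of Acsl4, Acsl5, Acsl6 or Tlcd4 was kept, and 1 of those of Acsl1.

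Other genes of lipid metabolism were taken in 9 lists by function, 190 genes of which 153 were tested. In the whole set 35 rose and 37 fell, 22.9% and 24.2% of them beside 21.7% and 17.7% of all genes, with a median log2 fold change of -0.10 against -0.02. Scaling by library totals gave 26 rises and 49 falls, and upper quartile factors gave 28 and 55. With library totals the median of all genes moved to -0.29, so the split depends on the scaling, and calls below are relative to TMM factors. The quasi-likelihood test of edgeR gave the adjusted p-values, with adjustment over all 21445 genes.

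Acyl-CoA synthetases outside the ACSL family had 2 rises and 3 falls among 12 tested, 16.7% and 25% of them, beside 21.7% and 17.7% of all tested genes, and 5 falls with upper quartile factors. Acss1, which activates acetate in mitochondria, had 226 ± 51.6 CPM in Asrij high, against 56.3 ± 7.64 CPM in Asrij low (log2 2.01 ± 0.21, adjusted p = 3.09e-04). The medium-chain synthetase gene Acsm3 rose by the widest margin of the 153 genes, at 5.85 ± 1.57 CPM in Asrij high, against 0.343 ± 0.120 CPM in Asrij low (log2 4.05 ± 0.50, adjusted p = 5.73e-04), still under the 4 genes above 5. The fatty acid transport proteins Slc27a1 (log2 -2.39, adjusted p = 0.00574) and Slc27a6 (log2 -2.50, adjusted p = 0.00144) fell. Slc27a1 was at -3.27 without Asrij high replicate 2 and at -3.29 without both that library and Asrij low replicate 3.

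Among other desaturases and elongation enzymes 8 rose and 2 fell of 20 tested, with a median of 0.37. These were 40% and 10% of them, beside 21.7% and 17.7% of all tested genes. Fads3, a front-end desaturase family member, had 38.8 ± 7.61 CPM in Asrij high, against 5.15 ± 0.744 CPM in Asrij low (log2 2.91 ± 0.25, adjusted p = 1.98e-04). Fads2, the first desaturase of polyunsaturated fatty acid synthesis, had 199 ± 32.1 CPM in Asrij high, against 66.3 ± 13.0 CPM in Asrij low (log2 1.58 ± 0.20, adjusted p = 6.40e-04). Its partner Fads1 had 118 ± 10.3 CPM in Asrij high, against 96.8 ± 28.9 CPM in Asrij low, which did not pass (adjusted p = 0.356). Cyb5r3, the reductase that feeds electrons to desaturases through cytochrome b5, rose (log2 1.32, adjusted p = 7.88e-04), and the dehydratase gene Hacd4 fell (log2 -1.62, adjusted p = 0.00116). The falls numbered 1 without Asrij low replicate 2 or any 1 of the Asrij high libraries, and 3 without Asrij low replicate 3.

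Fatty acid synthesis had 3 rises and 1 fall among 11 tested, 27.3% and 9.09% of them, beside 21.7% and 17.7% of all tested genes. The list median was 0.54. The 2 acetyl-CoA carboxylases moved in opposite directions. Acaca, the cytosolic form that makes malonyl-CoA for synthesis, had 144 ± 12.9 CPM in Asrij high, against 82.7 ± 4.79 CPM in Asrij low (log2 0.80, adjusted p = 0.00309), whereas Acacb, the form at mitochondria, had 5.73 ± 1.83 CPM in Asrij high, against 19.6 ± 4.04 CPM in Asrij low (log2 -1.77, adjusted p = 0.00225). Mecr of mitochondrial synthesis (log2 1.03, adjusted p = 0.00269) and the pyruvate carboxylase gene Pcx (log2 1.61, adjusted p = 0.00458) rose. The fatty acid synthase gene Fasn had 423 ± 50.9 CPM in Asrij high, against 292 ± 70.6 CPM in Asrij low (adjusted p = 0.0693). The count of rises was 6 without Asrij low replicate 2.

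Of glycerolipid acyltransferases and lipid droplet genes, 11 rose and 5 fell among 34 tested, with a median of 0.29. The shares were 32.4% and 14.7%, beside 21.7% and 17.7% of all tested genes. Lpcat3, which places polyunsaturated chains into phospholipids, had 81.9 ± 9.27 CPM in Asrij high, against 34.6 ± 4.47 CPM in Asrij low (log2 1.24, adjusted p = 9.72e-04). Agpat5 (log2 1.73, adjusted p = 3.04e-04), Lpcat1 (log2 1.37, adjusted p = 0.00104) and Mboat2 (log2 1.75, adjusted p = 0.00209), all acyltransferase genes, rose too. The split was 7 and 2 without Asrij high replicate 1 and 8 and 2 without Asrij high replicate 3, and the falls numbered 3 without Asrij low replicate 1 or 3. Upper quartile factors gave 8 and 9, and library totals 7 and 7.

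**Figure D4:**
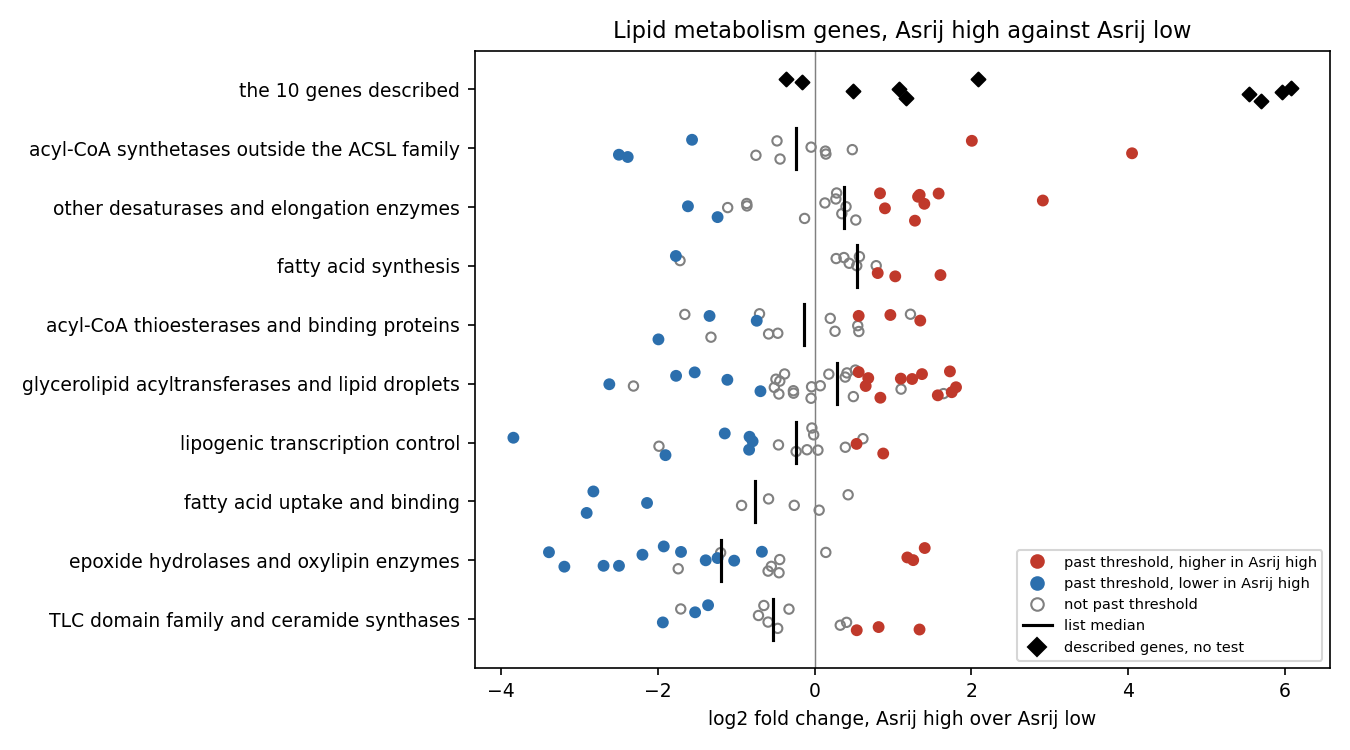
Log2 fold change, Asrij high over Asrij low, of the 10 genes described (black diamonds, no test) and of the tested genes of 9 lipid lists, red where higher and blue where lower past the threshold, open where not past it, with black bars for list medians. The 4 diamonds above 5 lie beyond every list gene, the highest of which is Acsm3 at 4.05.

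Regulators of lipogenesis had 2 rises and 6 falls among 17 tested and a median of -0.24. As shares this was 11.8% and 35.3%, beside 21.7% and 17.7% of all tested genes. Srebf2, which drives sterol genes, had 178 ± 55.1 CPM in Asrij high, against 395 ± 97.8 CPM in Asrij low (log2 -1.15, adjusted p = 0.00764). Srebf1, the activator of Scd1 and Fasn in liver, had 170 ± 30.9 CPM in Asrij high, against 111 ± 27.4 CPM in Asrij low (log2 0.62, adjusted p = 0.0519). The LXR gene Nr1h3 (log2 -1.90, adjusted p = 0.00798), the glucose sensor gene Mlxip (log2 -0.83, adjusted p = 0.00556) and Pparg, the regulator of fat cells (log2 -3.85, adjusted p = 0.00459), fell. Pparg was at -2.92 without Asrij low replicate 3 and at -2.52 when Asrij high replicate 2 was left out as well. The rises numbered 1 without replicate 3 of either group and 0 without Asrij high replicate 1.

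Fatty acid uptake genes had 0 rises and 3 falls among 8 tested, 0% and 37.5% of them, beside 21.7% and 17.7% of all tested genes. Their median was -0.76. At an unadjusted p under 0.05 there were 0 rises, and DESeq2 and limma-voom gave 0 rises as well. Lpl, which encodes lipoprotein lipase, had 2.75 ± 0.753 CPM in Asrij high, against 19.5 ± 15.3 CPM in Asrij low (log2 -2.82, adjusted p = 0.00312), Vldlr fell (log2 -2.14, adjusted p = 0.00739) and so did Fabp4 (log2 -2.91, adjusted p = 0.0195). Lpl was at -1.99 without Asrij low replicate 3 and at -2.22 without Asrij high replicate 2 as well, and Vldlr was at -2.82 without Asrij high replicate 2 and at -3.05 without both. Fabp4 was at -3.93 without Asrij high replicate 3. The threshold was missed without Asrij low replicate 3 (-1.75, adjusted p = 0.0755), without Asrij high replicate 1 (-2.66, adjusted p = 0.114), without Asrij high replicate 2 (-2.56, adjusted p = 0.0838), without both libraries that stood apart (-1.45, adjusted p = 0.148) or without a count filter (-2.84, adjusted p = 0.132). Mesenchymal markers moved with these genes: 8 of 8 were lower in Asrij high, with sums of 23.4 to 75.8 CPM in Asrij high, against 242 to 779 CPM in Asrij low, highest in Asrij low replicate 3, and their part was not tested.

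Epoxide and oxylipin enzymes fell in 11 of 21 cases and rose in 3, with a median of -1.20. Falls were thus 52.4% and rises 14.3%, beside 17.7% and 21.7% of all tested genes. Ephx1, the microsomal epoxide hydrolase and the relative of Ephx2, had 0.239, 1.08 and 0.485 CPM in Asrij high, against 6.07, 7.34 and 3.24 CPM in Asrij low, with no overlap (log2 -3.20 ± 0.64, adjusted p = 0.00417; chosen after its value was seen). Ephx2 and Ephx1 thus stood on opposite sides, and Ephx1 was at -3.89 without Asrij high replicate 2 and at -4.21 without Asrij low replicate 3 as well. The cytochrome P450 genes Cyp2j6 (log2 -2.69, adjusted p = 0.00159), Cyp2j9 (log2 -2.50, adjusted p = 0.00127) and Cyp4f16 (log2 -1.93, adjusted p = 0.00159), of families that make or degrade fatty acid epoxides and leukotrienes, fell. Lta4h, the leukotriene A4 hydrolase gene, had 142 ± 7.91 CPM in Asrij high, against 59.3 ± 4.27 CPM in Asrij low (log2 1.26 ± 0.15, adjusted p = 4.63e-04). Markers of macrophages, of mast cells and basophils, and of B cells moved with this list, whereas neutrophil markers did not. Of the 8 neutrophil markers 2 were past the threshold as higher and 1 as lower, with sums of 3576 to 6978 CPM in Asrij high, against 856 to 3674 CPM in Asrij low. Macrophage markers were past the threshold as lower in Asrij high in 6 of 7 cases, beside 17.7% of all tested genes, and Vcam1 (log2 -0.44) was not past it. Their sums were 36.2 to 44.3 CPM in Asrij high, against 74.2 to 236 CPM in Asrij low. Mast cell and basophil markers were past the threshold as lower in 3 of 6 cases and as higher in 0. Mcpt8 (log2 -1.65), Fcer1a (log2 -2.25) and Prss34 (log2 -2.92) had negative values too but did not pass. The sums were 64.7 to 312 CPM in Asrij high, against 382 to 687 CPM in Asrij low. B and plasma cell markers were past the threshold as lower in 6 of 7 cases, and Jchain (log2 -3.66) was not past it. Their sums were 16.0 to 24.5 CPM in Asrij high, against 73.6 to 152 CPM in Asrij low. The part of these cells in the falls of oxylipin genes was not tested.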

How the data were processed

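RNA-seq libraries were made from sorted long-term HSCs, 3 Asrij high and 3 Asrij low. The deposited values are raw counts per gene; FastQC, HISAT2, SAMtools, Subread and the mm10 build are named per the submitters' processing notes, with versions, strand setting and treatment of multiply mapped reads not given in the sources used here. Per the labels' protocols, ribosomal RNA was removed and a stranded kit was used, whereas the labels' molecule field says polyA RNA. Library totals were 24707012 to 72855125 counts. Replicates of a group differed by far more than counting error (chi-square per degree of freedom 82.4 to 191 between pairs), so the spread between libraries, not depth, limits the precision of well-counted genes, and count floors cover counting error only.

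Counts were scaled by TMM and fitted in edgeR 4.0.16 (quasi-likelihood, robust) under R 4.3.3, after filterByExpr (minimum count 10, minimum total 15) left 21445 of 49997 genes. The Benjamini-Hochberg threshold was 0.05. Standard errors were derived from the quasi-likelihood statistic. The fit was also run on simulated counts with 200 changed genes, a far smaller share than the 39.4% of tested genes called in these data. That run therefore cannot show how the scaling or the error rate holds at such a share. Exon lengths are union exons of GENCODE M21, in which Tlcd4 is listed as Tmem56. Promoter sequences are RefSeq GRCm38.p6. Nearest genes needed a mean of 1 CPM. DESeq2 1.42.0, limma-voom (limma 3.58.1), other scalings, no count filter, a replicate block and the omission of libraries were tried as alternatives.

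The 10 genes and the lists were chosen with earlier results of these data known. Named list genes are those with the smallest p past the threshold, up to 4 a list. Ephx1, Fads1, Fasn and Srebf1, and the marker genes named, were added after their values were seen.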

Additional observations from a re-analysis of the deposited data

How the results depend on the processing

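Over 14 alternatives, 6 to 8 of the 10 genes were past the threshold as higher and 0 as lower. Several of the 10 were picked by this comparison, so these counts, here and below, describe the choice and are no test of stability. All tested genes gave 3135 to 5183 higher and 2346 to 5249 lower over the same alternatives. Over all genes, the count of higher genes was 4655 and stayed within 1.5 times under each alternative, and that of lower genes was 3797, with 2346 to 3752 when 1 library was left out, the lowest being without Asrij high replicate 1. Ociad1 had a log2 fold change of 0.36 with library totals and 0.36 with upper quartile factors, neither past the threshold, and 0.53 to 0.76 when 1 library was left out. Leaving 1 library out gave -0.57 to -0.01 for Acsl3, -0.44 to 0.17 for Scd2, 5.29 to 10.24 for Scd3 and 5.56 to 12.44 for Ephx2. Over all genes the median came to -0.29 with library totals and -0.30 with upper quartile factors, and the lipid lists then split into 26 higher and 49 lower, and 28 and 55. DESeq2 split them into 35 and 48. By list, upper quartile factors gave 9 glycerolipid falls, 5 falls of synthetases outside the ACSL family, and 1 rise and 6 falls of thioesterases and binding proteins. Falls in the TLC and ceramide synthase list numbered 6 with DESeq2, library totals or upper quartile factors. Library totals gave 7 glycerolipid rises, 1 rise and 5 falls of thioesterases and binding proteins (5 falls with DESeq2 too) and 0 rises of lipogenic regulators. Those regulators had 1 rise with RLE factors, upper quartile factors or DESeq2. Fatty acid synthesis had 6 rises with limma-voom and with no count filter, and no filter left 1 desaturase fall. Without division by exon length, the mean ACSL share of Acsl1 was 23.4% in Asrij high and 31.5% in Asrij low, of Acsl3 5.48% and 19.2%, of Acsl5 57.6% and 37.9%, and of Acsl6 4.47% and 0.280%, in the same order of groups, and the SCD share of Scd4 was 0.227% in Asrij low. After scaling to unit SD, the genes shared with the 3 nearest numbered 1 for Acsl1 and 0 for Acsl4, Acsl5, Acsl6 and Tlcd4. Omitting both Asrij low replicate 3 and Asrij high replicate 2, an alternative chosen after seeing the data, left 4442 higher and 3925 lower genes and the 10 genes at 7 and 0.

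Whether the replicate numbers pair the samples is not given. Deviations of same-numbered libraries from their group means correlated at 0.013, 0.046 and 0.22. The last was the highest of all pairs between the groups, and so few libraries cannot decide the question. With the replicate block the counts were 4475 higher and 3613 lower over all genes, 36 and 37 in the lipid lists and 7 and 0 among the 10 genes. The size of the Scd3 and Ephx2 differences is limited by disagreement between libraries: Ephx2 had 28 counts in Asrij low replicate 1 and none in the other two, and Scd3 spanned 22.4-fold within Asrij high.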

Other observations

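Acyl-CoA thioesterases, which undo the step that synthetases catalyse, and acyl-CoA binding proteins had 3 rises and 3 falls among 16 tested, 18.75% each way, close to the 21.7% and 17.7% of all tested genes, with a median log2 fold change of -0.14. Acot13, a thioesterase gene of mitochondria and cytosol, had 11.9 ± 1.55 CPM in Asrij high, against 4.69 ± 1.30 CPM in Asrij low (log2 1.35, adjusted p = 0.00908 in edgeR). Acot11 had 8.69 ± 4.22 CPM in Asrij high, against 34.7 ± 3.81 CPM in Asrij low (log2 -1.99, adjusted p = 0.00205). Acot1 (log2 -1.34, adjusted p = 0.029) and Acbd5, a peroxisomal acyl-CoA binding protein gene (log2 -0.74, adjusted p = 0.043), fell as well. Leaving out replicate 1 or 3 of either group, or both libraries that stood apart in their marker sums, ended the Acot1 call, and that of Acbd5 ended with limma-voom, with no count filter and without each library in turn other than Asrij low replicate 1. The split was 1 and 1 without Asrij high replicate 1 or 3, and the rises numbered 1 without Asrij high replicate 2. Upper quartile factors gave 1 rise and 6 falls.

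The TLC domain family, to which Tlcd4 belongs, and the related ceramide synthases had 3 rises and 3 falls among 14 tested, 21.4% each way. Of all tested genes 21.7% rose and 17.7% fell, and the list median was -0.53. Tlcd1, a membrane fluidity regulator, had 26.8 ± 4.80 CPM in Asrij high, against 10.6 ± 1.68 CPM in Asrij low (log2 1.34, adjusted p = 0.00264), well short of the log2 difference of 5.69 of Tlcd4. Among ceramide synthases, Cers2, which makes very long-chain ceramides, rose (log2 0.82, adjusted p = 0.00347), while Cers4 (log2 -1.94, adjusted p = 0.00266) and Cers5 (log2 -1.36, adjusted p = 0.00718) fell. Cers2 was also the most abundant of these, at 189 ± 18.8 CPM in Asrij high, against 108 ± 9.28 CPM in Asrij low. The falls numbered 2 without Asrij high replicate 3, 5 without Asrij low replicate 3, and 6 with DESeq2, library totals or upper quartile factors.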
